A study of Homo sapiens with 6 samples.

Results

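The genes described here are 38 genes of protein folding and quality control in the endoplasmic reticulum (ER) and of the unfolded protein response, measured by RNA-sequencing in the 12Z cell line. They were taken by symbol, 38 of 60660 genes in the count files, and cover ER chaperones, disulfide isomerases, ER-associated degradation (ERAD), the Sec61 channel and the sensors and transcription factors of the response. 12Z is an established human epithelial cell line derived from endometriosis, a disease in which tissue like the lining of the uterus grows outside it. Cells were transfected with a non-targeting siRNA (control, 3 libraries) or with 10 nM of the siRNA LINC01133a (knockdown, 3 libraries). LINC01133a targets the long noncoding RNA LINC01133, and RNA was taken 72 h after transfection. The study gives no separate concentration for the control siRNA. Both groups received the same transfection reagent, and the study describes the libraries of a group as biological replicates. The comparison asks which transcripts differ when LINC01133 is depleted. The knockdown rests on 1 siRNA in 1 cell line, so the depletion of LINC01133 and other effects of that oligo cannot be told apart.

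Secreted and membrane proteins enter the ER through the Sec61 channel, fold with the help of HSP70-type and HSP90-type chaperones and of lectin chaperones that hold glycoproteins, and gain disulfide bonds from the protein disulfide isomerases. Proteins that fail to fold are pulled back to the cytosol and degraded by ERAD. When unfolded proteins accumulate, the sensors IRE1 (ERN1), PERK (EIF2AK3) and ATF6 start the unfolded protein response, whose transcription factors XBP1 and ATF6 raise chaperone and ERAD genes and whose PERK arm raises genes through ATF4. Secretory epithelium carries a heavy load of such proteins.

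Values below are normalized counts, that is, counts of read pairs on the gene scaled to the mean effective library of the 6 samples, unless another scale is named. Libraries held 27742562 to 37551194 counts on genes. LINC01133 itself stood at 813, 818 and 837 normalized counts in the control libraries and at 130, 131 and 138 in the knockdown libraries, 16.2% of the control mean. Its log2 fold change was -2.63 ± 0.070 (SE, adjusted p = 3.5e-11, quasi-likelihood test of edgeR), and all 6 libraries lay on the side that their labels give. Keratins of epithelial cells were abundant, with KRT8 at a mean of 104550 in control and 67729 in knockdown and KRT18 at 57532 and 39192. EPCAM was near the limit of detection, with means of 13.6 and 16.9, and CDH1 fell from 412 to 102. The stromal markers COL1A1 (87700 and 82069) and THY1 (10936 and 8395) were also high, and both are typical of fibroblasts. DCN (5889 and 4957), PDGFRB (2478 and 1980) and PDGFRA (249 and 86.9) fell, as THY1 did, COL1A1 did not pass the test (adjusted p = 0.13), and MME rose from 529 to 931 (adjusted p = 8.6e-07). The summed epithelial list of 6 genes ranged from 6178 to 6514 CPM (counts scaled to the TMM-normalized library) in control and from 3947 to 4132 CPM in knockdown, while the stromal list of 6 genes ranged from 3134 to 3601 CPM and from 2992 to 3102 CPM. The leukocyte list of 3 genes summed to 53.5 ± 3.25 CPM in control and 27.3 ± 1.04 CPM in knockdown (SD, n = 3), nearly all of it CD14 (means of 1707 and 863), with CD68 at means of 1.32 and 1.03 and PTPRC at 23.8 and 20.4. Endothelial markers stayed under 1 CPM in every library, nearly all of it VWF (means of 20.6 and 25.4, adjusted p = 0.33), with PECAM1 at means of 2.42 and 0.283 and CLDN5 at 0.375 and 0.324. The part of these marker shifts in the results below was not tested. In bulk RNA, fewer cells of a type and less RNA per cell cannot be told apart.

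Of the 38 genes, 37 had enough counts to be tested. The numbers that rose and fell were equal. In knockdown, 12 of 37 were higher at an adjusted p under 0.05, against 23.3% of all 15155 genes tested, and 12 of 37 were lower, against 25.0%. The other 13 did not pass the test. The share of the ER genes that passed was thus 32.4% in each direction. Their median log2 fold change was -0.02, and that of all genes tested was 0.0032. With the cutoffs of the study, a fold change over 1.5 with an adjusted p under 0.05, 1 gene was higher (DNAJB9) and 2 were lower (PDIA3 and SELENOK), whereas 11.7% of all genes tested passed these cutoffs in either direction. The libraries of the 2 groups did not overlap for 13 genes that were higher and 14 that were lower, and 57.3% of all genes tested also had groups that did not overlap. By role, the counts were as follows, and differences between roles were not tested. The disulfide isomerases and oxidases, the lectin chaperones and the translocon genes had no member that rose, the sensors and transcription factors had 4 that rose and 1 that fell, and ERAD had 5 that rose and 3 that fell.

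**Figure D1:**
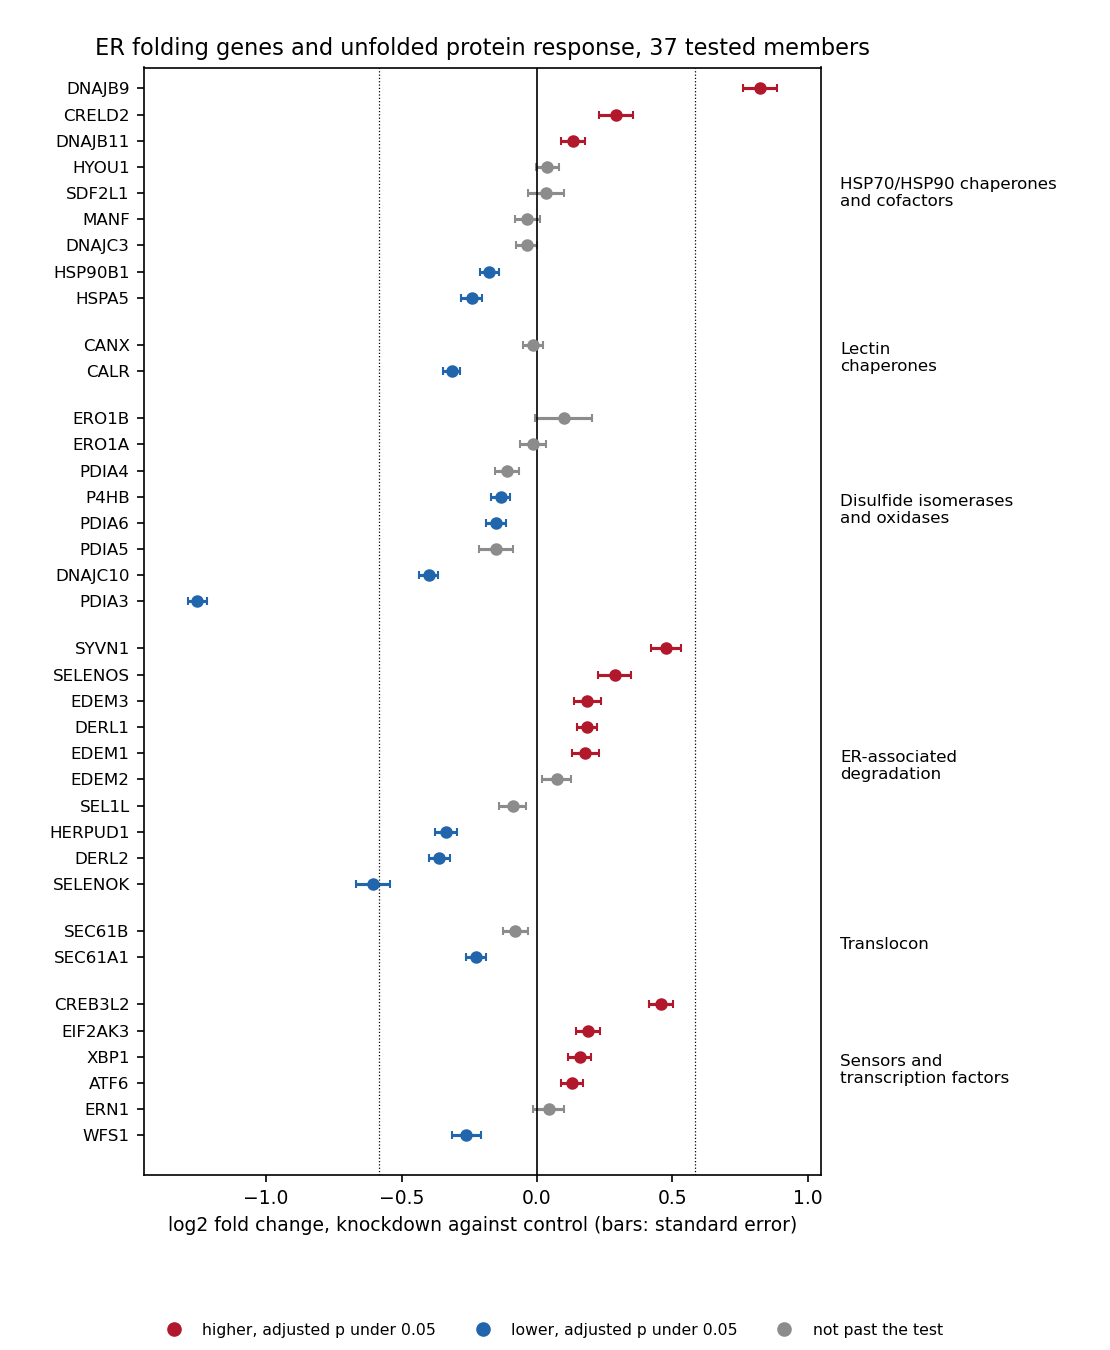
Log2 fold change of knockdown against control (x axis) for each of the 37 tested genes, grouped by role, with bars for the standard error and dotted lines at a fold change of 1.5. The disulfide isomerase PDIA3 lies farthest to the left at -1.25 and the cochaperone DNAJB9 farthest to the right at 0.82, and all other genes except SELENOK lie between the dotted lines.

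The change was small for most members but touched the most abundant ones. Per length, on the scale of fragments scaled to exon length and to the TMM-normalized library (FPKM), the highest control levels were those of CALR (421 FPKM), HSPA5 (192), PDIA6 (119), P4HB (102), PDIA4 (81.5), HSP90B1 (78.9), PDIA3 (59.7) and CANX (57.0), and the lowest level of a tested gene was that of ERO1B (0.326). All exons of a gene counted toward its length, so genes with long rarely used exons are understated. All 38 genes together took 0.911% of the gene counts in control and 0.831% in knockdown. Their summed level was 9178 to 9438 CPM in the control libraries and 7909 to 8286 CPM in the knockdown libraries, so the groups did not overlap. The means were 9313 ± 130 CPM and 8139 ± 202 CPM (SD, n = 3). PDIA3 alone made up 34.8% of the difference of -1174 CPM, CALR 19.8%, HSPA5 16.5%, HSP90B1 10.1% and P4HB 8.56%. Without PDIA3 the sums were 8488 to 8725 CPM and 7620 to 7984 CPM.

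Of the 8 genes with a control mean of at least 10000 normalized counts, 7 fell and 0 rose (CANX did not pass the test). Among all genes tested at that count, 563 in number, 54.5% fell and 10.7% rose. Of the 19 genes with control means from 1000 to under 10000, 8 rose and 4 fell, against 24.2% and 34.9% of all genes. Of the 10 genes under 1000, 4 rose and 1 fell, against 23.4% and 16.5%. These classes were drawn after the values had been seen. Over the 37 genes, Spearman's rho between the control mean and the log2 fold change was -0.452, and over all 15155 genes tested it was -0.186. With the control level per length in place of the count, rho was -0.516 over the 37 genes and -0.175 over 15121 genes. These are descriptions across genes, which are not independent, and both measures share the control libraries.

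**Figure D2:**
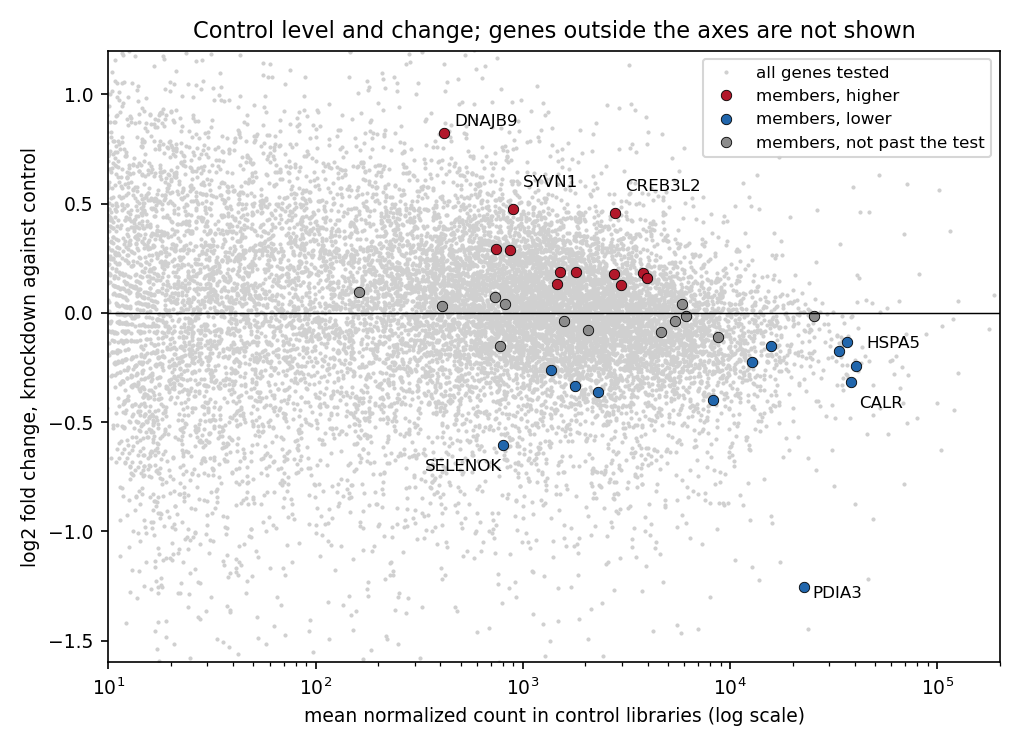
Mean normalized count in the 3 control libraries (x axis, log scale) and log2 fold change of knockdown against control (y axis) for all genes tested (grey dots) and for the ER genes (large points, red higher, blue lower, grey not past the test). The ER genes with the most counts, at the right, lie below 0, and DNAJB9, SYVN1 and CREB3L2, with fewer counts, lie above it.

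Many genes of the unfolded protein response carry an ER stress response element (ERSE) in the promoter, the letters CCAAT and CCACG with any 9 bases between them, or ERSE-II, the letters ATTGG and CCACG with any 1 base between them. Promoters of RefSeq on GRCh38.p14, from 250 bases before to 50 bases after a transcription start, were searched on both strands. Of the 38 genes, 35 had a promoter there. An exact ERSE was found for 8 of 35 (22.9%), namely HSPA5, HSP90B1, CRELD2, CALR, CANX, PDIA6, ERO1B and XBP1. It was found for 0.09% of all 27305 genes with a promoter and for 0.15% of the 10910 tested genes with one. ERSE-II was found for HYOU1, SDF2L1 and HERPUD1 (8.57%, against 0.07% of all these genes and 0.14% of those tested). The element named UPRE (TGACGTGG) holds the reverse complement of CCACG and can overlap the others. It was found for HYOU1 and DNAJC10 (5.71%, against 0.93% of all these genes and 1.26% of those tested). One ERSE-II of HYOU1 overlaps its UPRE. The elements below belong to 5 genes that passed the test and whose values follow, shown on the strand of the gene with the fixed letters in capitals. Each lies upstream of a RefSeq start, and that of HSP90B1 falls within the wider span that GENCODE v44 gives the gene.

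The ERSE of HSPA5 spans chr9:125241391-125241409, 66 to 48 bases before the start (minus strand gene).
HSPA5: ttcaCCAATcggcggcctCCACGacgg
The ERSE of HSP90B1 nearest its start spans chr12:103930321-103930339 and reads on the opposite strand.
HSP90B1: ggtgCGTGGtgcggcgcgATTGGtggg
The ERSE of CALR spans chr19:12938384-12938402 and also reads on the opposite strand.
CALR: cacgCGTGGtcgaccatcATTGGtcgg
The ERSE of XBP1 spans chr22:28800603-28800621 (minus strand gene).
XBP1: ctggCCAATcgcggagggCCACGaccg
The ERSE-II of HERPUD1 spans chr16:56932025-56932035.
HERPUD1: gccgATTGGgCCACGttgg

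Genes that share these elements did not share a direction. Of the 11 tested genes with an ERSE or ERSE-II, 2 rose (CRELD2 and XBP1), 5 fell (HSPA5, HSP90B1, CALR, PDIA6 and HERPUD1) and 4 did not pass the test, with a median log2 fold change of -0.02 and a range from -0.34 to 0.29. Of the 26 without one of these exact elements, of which PDIA3 and DERL1 had no promoter to search, 10 rose, 7 fell and 9 did not pass, with a median of -0.03. Over all genes tested, 23.3% rose and 25.0% fell. The difference between genes with and without an element was not tested. A match of letters is a description of the window and no evidence that a factor binds there.

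Among the chaperones of the HSP70 and HSP90 type and their cofactors, 3 of 9 rose (33.3%, against 23.3% of all genes tested). Another 2 fell (22.2%, against 25.0%), and 4 did not pass the test. HSPA5 (BiP), the HSP70 of the ER lumen that also holds the stress sensors in check, stood at 40271, 41587 and 40169 in control and at 34976, 35400 and 32846 in knockdown. Every knockdown library lay below every control library, at 84.6% of the control mean, with a log2 fold change of -0.24 ± 0.038 (SE, adjusted p = 1.5e-04). HSP90B1 (GRP94), the HSP90 of the ER, went from 33425 ± 922 to 29595 ± 727 (SD, n = 3), or -0.18 on the log2 scale (adjusted p = 0.0013). Both carry the ERSE shown above.

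DNAJB9 (ERdj4), a J-domain cochaperone that brings HSPA5 to its clients and to IRE1, moved the other way. It stood at 423, 420 and 408 in control and at 691, 758 and 771 in knockdown. The groups were far apart for their spread, a 1.77-fold rise with a log2 fold change of 0.82 ± 0.064 (SE, adjusted p = 3.1e-07). CRELD2, a secreted ER protein with disulfide isomerase activity, rose from 741 ± 45.1 to 906 ± 60.3 (log2 fold change 0.29, adjusted p = 0.0019). DNAJB11 (ERdj3), another J-domain partner of HSPA5, rose from 1453 ± 48.3 to 1590 ± 56.0 (0.13, adjusted p = 0.027), a call that did not hold under 6 of 13 alternatives. No call was made for 4 cofactors. They were HYOU1, the nucleotide exchange factor of HSPA5 (log2 fold change 0.04, adjusted p = 0.47), and DNAJC3, a cochaperone also known as an inhibitor of PERK and related kinases (-0.04, adjusted p = 0.45). The others were SDF2L1, which works with DNAJB11 (0.03, adjusted p = 0.71), and MANF, a secreted partner of HSPA5 (-0.04, adjusted p = 0.54).

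The 2 lectin chaperones, which bind the sugar of a newly made glycoprotein, differed. CALR (calreticulin), the soluble one, stood at 38479, 38366 and 37718 in control and at 30888, 31029 and 30130 in knockdown. The groups were separated by several times their spread, at 80.3% of the control mean (log2 fold change -0.32 ± 0.033, SE, adjusted p = 4.5e-06). CANX (calnexin), anchored in the membrane, was at 25397 ± 971 and 25123 ± 558, with groups that overlapped (-0.02, adjusted p = 0.76). The difference between the changes of these 2 genes was not tested.

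The largest change of any member was that of PDIA3 (ERp57), the disulfide isomerase that docks on CALR and CANX and works on the glycoproteins they hold. It stood at 22323, 23079 and 22820 in control and at 9515, 9760 and 9329 in knockdown. No knockdown library came near the control range, and the mean was 41.9% of control (log2 fold change -1.25 ± 0.035, SE, adjusted p = 4.6e-11). A processed pseudogene, PDIA3P1, held 79 to 100 raw counts in control and 72 to 88 in knockdown (adjusted p = 0.26) beside 8223 to 23581 raw counts of PDIA3. DNAJC10 (ERdj5), an ER reductase that opens disulfide bonds of ERAD clients, stood at 8131, 8428 and 8366 in control and at 6314, 6276 and 6297 in knockdown. That is 75.8% of control with no overlap, a log2 fold change of -0.40 ± 0.034 (SE, adjusted p = 8.2e-07).

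The other disulfide isomerases shifted less. PDIA6 fell from 15732 ± 382 to 14174 ± 419 (log2 fold change -0.15, adjusted p = 0.0043). P4HB, the founding protein disulfide isomerase and a subunit of prolyl hydroxylase, fell from 36607 ± 95.6 to 33354 ± 903 (-0.13, adjusted p = 0.0053), but with library size alone as scaling its change was -0.07 (adjusted p = 0.074). PDIA4 (-0.11, adjusted p = 0.058) and PDIA5 (-0.15, adjusted p = 0.060) did not pass the test, although their groups did not overlap, and 14.2% of the exon bases of PDIA5 are shared with other genes on its strand. The oxidases that recharge the isomerases, ERO1A (-0.02, adjusted p = 0.81) and ERO1B (0.10, adjusted p = 0.48), had overlapping groups. In all, 4 of 8 genes of this role fell (50%, against 25.0% of all genes tested) and 0 rose (against 23.3%), with a median of -0.14. Their summed level was 3029 to 3082 CPM in control and 2345 to 2482 CPM in knockdown, with means of 3064 and 2422 CPM. PDIA3 alone changed by -408 CPM, so most of this drop came from 1 gene.

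**Figure D3:**
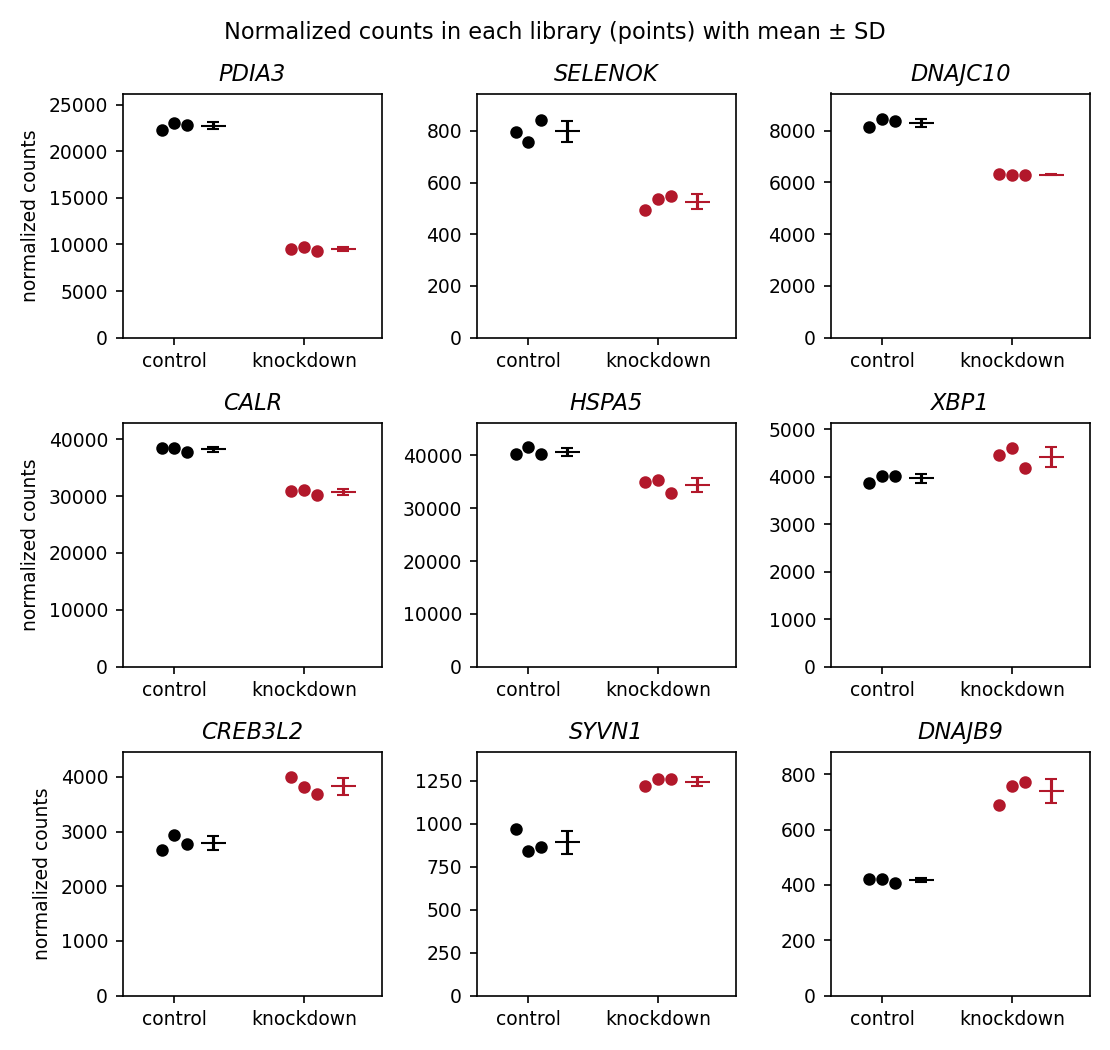
Normalized counts (y axis, starting at 0) of 9 ER genes in each of the 3 control libraries (black points) and 3 knockdown libraries (red points), with the mean and SD beside them. PDIA3, SELENOK, DNAJC10, CALR and HSPA5 were lower in every knockdown library than in every control library, and XBP1, CREB3L2, SYVN1 and DNAJB9 were higher.

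Because a small interfering RNA can also lower transcripts that match the seed of either of its strands, the matches of the members are given beside their values. The strands of LINC01133a are shown 5′ to 3′ with the seed, bases 2 to 8, in capitals.
Guide strand: uCCAUUCUcagguaacuucaa
Passenger strand: gAAGUUACcugagaauggatt
A match of 8 bases to the guide (AGAATGGA, the complement of the seed and an A after it) was present in the annotated 3′ UTR of 2 of 37 tested members (5.41%), against 894 of 12519 tested genes (7.14%). They were PDIA3 and SELENOK, the 2 members that were lower past the cutoffs of the study. Both sites are in exons, within the 3′ UTR (GRCh38), and are shown with the match in capitals, PDIA3 at chr15:43771330-43771337 on the plus strand and SELENOK at chr3:53885265-53885272 on the minus strand.
PDIA3: gccgagaggacAGAATGGAtata
SELENOK: ttttaggttgcAGAATGGActcc
A match of 7 bases to the guide was present in 10 of 37 members (27.0%), PDIA3 and SELENOK included, against 20.7% of all genes. The members with it had a median log2 fold change of 0.012, and those without it -0.036, whereas over all genes the medians were -0.08 and 0.002. DNAJC10 held 3 such matches in an annotated 3′ UTR of 17332 bases, and EDEM1 (0.18) and SELENOS (0.29) held matches and rose. Over all genes tested, the median was -0.13 with an 8-base match and -0.005 without. On the lists of related genes described further below, genes with a match of 7 bases to the guide went both ways. Examples were MBTPS2 (-1.03), AFG3L2 (-0.49), UBE2G2 (0.24) and ATF3 (0.82). The genes of these lists with an 8-base match to the guide did not pass the test. They were QSOX1 (-0.036), MARCHF6 (-0.044), SPCS1 (-0.069), DNAJC2 (-0.085) and GRPEL1 (0.0035). For the passenger strand, 13 of 37 members held a match of 7 bases (35.1% against 15.8% of all genes). Their median was -0.15, against 0.036 in the members without (-0.04 against -0.006 over all genes). A match of 8 bases was held by 5 members (13.5% against 4.03% of all genes). Their median was -0.15, against 0.008 in the members without (-0.043 against -0.01 over all genes). They were HSP90B1 (-0.18), DNAJC3 (-0.04), PDIA6 (-0.15), DNAJC10 (-0.40) and DNAJB9 (0.82). On the lists of related genes, an 8-base match to this strand was held by MAGT1 (-0.67), HSPA13 (-0.50), SRPRB (-0.17) and ERP44 (0.24). The length of the 3′ UTR was not adjusted for, and the part of seed matches in these values was not tested.

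**Figure D4:**
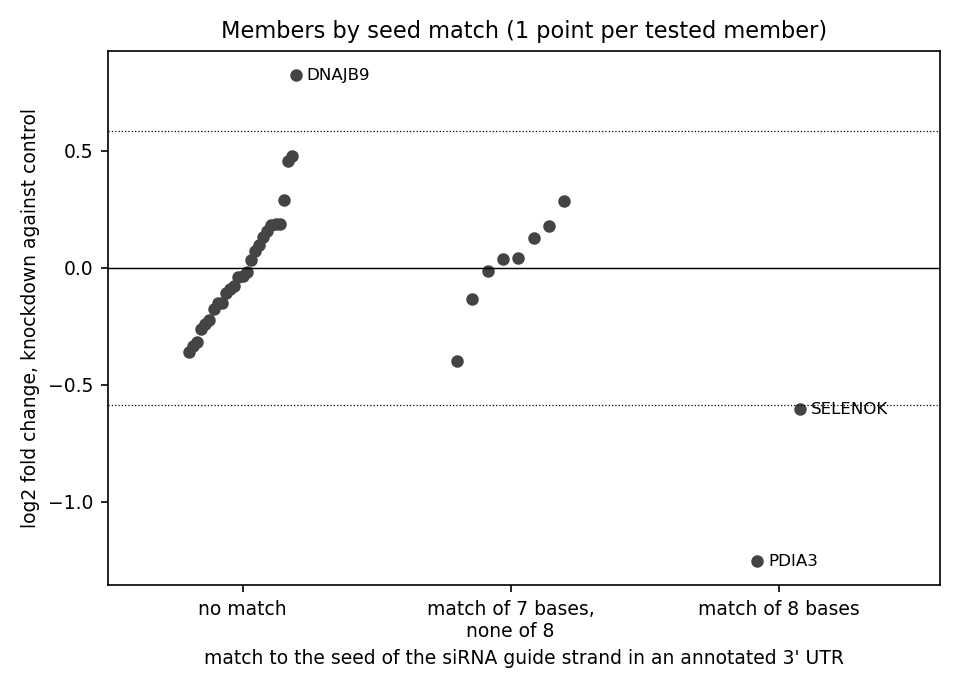
Log2 fold change of knockdown against control (y axis) of the 37 tested genes, split by their match to the seed of the siRNA guide strand in an annotated 3′ UTR (x axis, points spread sideways for clarity). The 2 genes with an 8-base match, PDIA3 (-1.25) and SELENOK (-0.61), are the lowest of all. Genes with a match of 7 bases and none of 8 run from -0.40 to 0.29.

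ERAD genes moved in both directions. Of the 10 tested, 5 rose (50%, against 23.3% of all genes tested) and 3 fell (30%, against 25.0%). SYVN1 (HRD1), the ubiquitin ligase at the centre of the pathway, stood at 969, 845 and 867 in control and at 1218, 1259 and 1260 in knockdown. Its groups did not overlap (1.39-fold, log2 fold change 0.48 ± 0.055, SE, adjusted p = 1.2e-05), and 3.5% of its exon bases are shared with other genes. Its adaptor SEL1L did not pass the test (-0.09, adjusted p = 0.15).

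SELENOS, a selenoprotein that recruits the ATPase VCP to the ER membrane, rose from 867 ± 40.0 to 1059 ± 81.5 (0.29, adjusted p = 0.0016). EDEM1 (0.18, adjusted p = 0.0094) and EDEM3 (0.19, adjusted p = 0.0075), which trim mannose from glycoproteins bound for degradation, rose, whereas EDEM2 was not called (0.07, adjusted p = 0.28). DERL1, a derlin of the retrotranslocation channel, rose from 3793 ± 62.0 to 4304 ± 114 (0.18, adjusted p = 0.0012).

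In the same pathway, 3 genes went the other way. SELENOK, a small membrane selenoprotein that binds derlins, stood at 795, 757 and 841 in control and at 493, 536 and 548 in knockdown. The highest knockdown library lay well below the lowest control library, at 65.9% of the control mean (log2 fold change -0.61 ± 0.063, SE, adjusted p = 4.6e-06). Its place past the fold change cutoff depended on single libraries, since the value was -0.56 without control replicate 3 and also -0.56 without knockdown replicate 1. DERL2, the closest relative of DERL1 on this list beside DERL3, fell from 2297 ± 43.1 to 1789 ± 41.4 (-0.36, adjusted p = 6.8e-06). HERPUD1, an organizer of the SYVN1 complex and a classical target of the response, fell from 1775 ± 27.4 to 1405 ± 46.6 (-0.34, adjusted p = 2.2e-05). DERL3 had means of 3.71 and 4.21 and was too low to test. The summed ERAD level overlapped, with 615 to 651 CPM in control and 630 to 651 CPM in knockdown.

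At the channel, SEC61A1, the pore subunit of the translocon, fell from 12819 ± 288 to 10966 ± 216 (-0.23, adjusted p = 1.6e-04). SEC61B, a small accessory subunit, did not pass the test (-0.08, adjusted p = 0.17).

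Of the 6 sensors and factors, 4 rose (66.7%, against 23.3% of all genes tested) and 1 fell (16.7%, against 25.0%). All changed by less than the fold change cutoff. CREB3L2 (BBF2H7), a membrane-bound transcription factor of the ATF6 type that drives secretory genes, stood at 2662, 2931 and 2777 in control and at 3991, 3810 and 3683 in knockdown. The groups were clearly apart (1.37-fold, log2 fold change 0.46 ± 0.045, SE, adjusted p = 2.9e-06). XBP1, the factor whose mRNA IRE1 splices, stood at 3864, 4020 and 4007 in control and at 4466, 4609 and 4184 in knockdown.

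The XBP1 groups did not overlap, though knockdown replicate 3 came near the control range (0.16, adjusted p = 0.0074), and gene counts do not show the splicing of XBP1. The sensor PERK (EIF2AK3) stood at 1474, 1592 and 1453 in control and at 1696, 1759 and 1689 in knockdown, without overlap (0.19, adjusted p = 0.0040). ATF6, sensor and factor in one, stood at 2962, 3093 and 2868 in control and at 3349, 3239 and 3163 in knockdown (0.13, adjusted p = 0.020). That call was lost without control replicate 3 (adjusted p = 0.070), knockdown replicate 1 (adjusted p = 0.098) or knockdown replicate 2 (adjusted p = 0.051). ERN1 (IRE1) was at 812, 812 and 832 in control and at 813, 815 and 909 in knockdown, where the groups overlapped and only knockdown replicate 3 stood higher (0.04, adjusted p = 0.56). WFS1 (wolframin), an ER membrane protein that restrains ATF6, fell from 1366 ± 80.7 to 1138 ± 55.3 (-0.26, adjusted p = 0.0013). The summed level of the 6 genes was 406 to 429 CPM in control and 454 to 478 CPM in knockdown.

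The rest of the pathway was read from lists of related genes. Among other regulators of the response, 3 of 16 tested rose (18.8%, against 23.3% of all genes tested) and 5 fell (31.2%, against 25.0%). The median of the 16 was -0.02. ATF6B, the paralog of ATF6, stood at 898, 825 and 916 in control and at 1466, 1467 and 1346 in knockdown, a rise of 0.70 on the log2 scale (adjusted p = 3.3e-07). The proteases that release ATF6 in the Golgi moved apart, with MBTPS1 (site-1 protease) at 0.35 (adjusted p = 5.4e-06) and MBTPS2 (site-2 protease) at -1.03 (adjusted p = 5.4e-09).

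MBTPS2 stood at 1526, 1592 and 1606 in control and at 766, 812 and 728 in knockdown, so no library of one group came near the other. CREB3L1, a paralog of CREB3L2, fell (-0.42, adjusted p = 1.0e-04), the opposite direction to CREB3L2. ERN2, the IRE1 of gut epithelium, had 0 counts in all 6 libraries.

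On the list of the PERK and ATF4 arm, 9 of 12 genes were higher (75.0%, against 23.3% of all genes tested). Another 2 were lower (16.7%, against 25.0%) and 1 was not called (median 0.41). Gene counts do not show the activity of PERK, and its part in these changes was not tested. CHAC1, a glutathione-degrading enzyme, stood at 28, 27 and 23 in control and at 125, 166 and 79 in knockdown, with a log2 fold change of 2.25 (adjusted p = 1.3e-05). SESN2, a regulator of growth signalling under amino acid stress, rose by 1.00 (adjusted p = 4.2e-06), ATF3 by 0.82 (adjusted p = 3.0e-06) and TRIB3 by 0.51 (adjusted p = 2.3e-05). ATF4 itself rose by 0.16 (adjusted p = 0.014), but its groups overlapped, with knockdown replicate 3 at 6661 and control replicate 1 at 6691. NUPR1 also passed with groups that overlapped (means of 25.4 and 40.4, adjusted p = 0.043). DDIT3 (CHOP) did not pass the test (0.30, adjusted p = 0.071). ASNS, asparagine synthetase, was counted at only 5.00 in control and 22.3 in knockdown, and 49.3% of its exon bases are shared with another gene on the strand. CEBPB (-0.73, adjusted p = 4.0e-05) and DDIT4 (-0.55, adjusted p = 1.2e-04) fell.

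In translocation and glycosylation, 16 of 25 genes fell (64%, against 25.0% of all genes tested) and 5 rose (20%, against 23.3%). The other 4 did not pass, and the median was -0.17. SRPRA, a subunit of the receptor for the signal recognition particle, was the strongest rise of the list, at 3380, 3155 and 3270 in control and 7354, 7237 and 6943 in knockdown (1.14, adjusted p = 3.0e-10). Its partner SRPRB fell (-0.17, adjusted p = 0.0027). MAGT1, of the oligosaccharyltransferase (-0.67, adjusted p = 1.1e-08), and SSR1, of the translocon-associated TRAP complex (-0.61, adjusted p = 4.3e-08), fell past the cutoffs. SEC61G, the third subunit of the Sec61 channel, fell as SEC61A1 did (-0.38, adjusted p = 4.3e-05).

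Of the other ER folding genes, 6 of 28 were higher (21.4%, against 23.3% of all genes tested) and 6 were lower (21.4%, against 25.0%). The other 16 were not called, and the median was -0.0065. MOGS, a glucosidase that trims the sugar before CALR and CANX bind it, rose by 0.45 (adjusted p = 1.9e-06), and HSPA13, an ER HSP70 relative, fell (-0.50, adjusted p = 1.1e-06). FKBP2 had too few counts to test, and 71.0% of its exon bases are shared with another gene on its strand. Of the other ERAD genes, 8 of 21 were higher (38.1%, against 23.3% of all genes tested), 3 were lower (14.3%, against 25.0%) and 10 were not called (median 0.04). OS9, the lectin that hands glycoproteins to SYVN1, rose by 0.32 (adjusted p = 1.9e-05), and JKAMP fell (-0.25, adjusted p = 3.2e-04).

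For comparison outside the ER, 9 of 11 tested cytosolic heat shock genes fell (81.8%, against 25.0% of all genes tested). The other 2 rose (18.2%, against 23.3%), and the median was -0.25. HSPH1 stood at -0.57 (adjusted p = 2.8e-07) and HSPB1, a small heat shock protein, at 0.94 (adjusted p = 1.5e-08). Several of these genes, such as HSPA8 and HSP90AB1, had control means of at least 10000 normalized counts. Among all genes tested at that count, 54.5% fell and 10.7% rose. HSPA1A, HSPA1B and CRYAB had too few counts to test. HSPA1A and HSPA1B are near-identical copies, and reads with more than 1 location were not counted, so their counts are uncertain. Of 13 mitochondrial folding and protease genes, 2 rose (15.4%, against 23.3%), 6 fell (46.2%, against 25.0%) and 5 did not pass (median -0.08). YME1L1, a protease of the inner mitochondrial membrane, had the largest change on any of these lists, from 13575 to 2110 (-2.69, adjusted p = 1.5e-12).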

How the data were processed

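RNA-sequencing of 6 samples of the 12Z cell line was used, 3 control and 3 LINC01133 knockdown. The authors converted reads with SAMtools 1.10, aligned them with STAR 2.7.6a to GRCh38.p13 with GENCODE v36, kept reads with a single location and deposited raw counts per gene in 3 columns by strand. The one whose reads lie opposite to read 1 held 94.0% of stranded counts and was used here. Rows naming no gene were left out (8.50% to 9.44% of the uniquely mapped reads).

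Genes passing filterByExpr (minimum count 10) were normalized by TMM (factors 0.968 to 1.03) and tested with the quasi-likelihood test of edgeR 4.0.16 in R 4.3.3, fitting the condition and no covariate, and p-values were adjusted by Benjamini-Hochberg across 15155 genes. DESeq2 1.42.0, the tool of the authors, other scalings, filters and columns, the replicate number as a block and leaving out each library were the alternatives. The scripts were tested on simulated data. Exon lengths and 3′ UTRs came from GENCODE v44, promoters from RefSeq, and siRNA strands from the supplementary tables of the study. Protein sequences were not used here. All 38 genes are accounted for by role, with values in every library for those on which the results turn. Genes and lists were chosen with earlier results of these data known, so counts over a list are descriptions and no test of the list was run. An exact permutation test of 3 against 3 libraries cannot go below p = 0.1 and was not used.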

Additional observations from a re-analysis of the deposited data

How the results depend on the processing

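In 13 alternatives, the 24 genes past the test kept their direction in each, and 21 of them passed in each; DNAJB11, ATF6 and P4HB did not. The number of ER genes that were higher ranged from 10 to 13 and the number lower from 11 to 14. Of the 13 not called, 10 passed in no alternative. PDIA4 passed with DESeq2 (adjusted p = 0.046), without a filter (0.037), with the replicate block (0.038) and without control replicate 2 (0.017), PDIA5 passed without control replicate 2 (0.040) or knockdown replicate 2 (0.026), and HYOU1 with library size alone (0.042).

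With library size alone as scaling, 1 gene (PDIA3) in place of 2 was lower past the cutoffs of the study, since SELENOK was at -0.54, and the median of the ER genes was 0.0467 against 0.0655 for all genes. DNAJC3 (0.0255), MANF (0.026), CANX (0.047) and ERO1A (0.0467), none of which passed the test, changed sign there. When single libraries were left out, the number lower past the cutoffs ranged from 1 to 2, being 1 without control replicate 3 or knockdown replicate 1. ERO1A then ranged from -0.066 to 0.0193, CANX from -0.0427 to 0.0144 and ERN1 from -0.0057 to 0.0755, and none of these passed the test. The cause was not tested.

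Replicate numbers are shared by both groups, but same-numbered libraries did not deviate together (r = -0.015, 0.00488 and 0.057 across genes), so the numbers were not taken as pairs. With the replicate block, 12 genes were higher and 13 lower, with a median of -0.0152. The 3 libraries in a group, 1 cell line and 1 siRNA limit these values, and DERL3 had too few counts to test.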
